A study of Mus musculus with 6 samples.

Results

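The ubiquitin-conjugating enzymes, or E2s, are the middle enzymes of the ubiquitin system, and their transcripts were compared here between cold-acclimated and non-acclimated T cells. The members were taken as the genes that the deposited table types as protein-coding and whose symbol begins with Ube2, and 36 such genes are described, of 41079 listed genes. Of these 36, 28 passed a filter of a mean of at least 1 TPM (a length-corrected share of the reads) over the 6 libraries and were tested, and 8 were listed at 0 TPM in every library. D10 is a cloned helper T cell line of the mouse, derived from lymph node and labelled CD4+, so that by the labels all libraries come from 1 clone. Non-acclimated cells were kept at 37°C for 24 h and cold-acclimated cells at 26°C for 24 h, with 3 replicates of each and no other treatment. Poly(A)+ RNA was sequenced in strand-specific, paired-end libraries, and the authors deposited TPM values, which divide the reads of a gene by its length and scale each library to the same total.

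Ubiquitin is activated by an E1 enzyme, handed to the catalytic cysteine of an E2, and placed on a substrate with the help of an E3 ligase. The E2 often sets which kind of chain is built, and thus whether the substrate goes to the proteasome, takes part in signalling or DNA repair, or changes its partners. Related E2s carry small proteins of the ubiquitin type, such as NEDD8 and ISG15, and in T cells E2s take part in antigen receptor and cytokine signalling, in the cell cycle and in the disposal of misfolded proteins.

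Read numbers were recovered by bringing the libraries to a common unit and finding the step of which all TPM of a gene are whole multiples. They were whole for 100% of 21195 genes within a tolerance of 1e-06 reads. Replicates 1, 2 and 3 had 16899628, 21462543 and 31290854 gene reads without cold acclimation and 19605883, 20579363 and 25169484 with it. The smallest number behind any tested E2 was 152 reads for Ube2v2 in cold-acclimated replicate 1, with an exact 95% Poisson interval of 129 to 178 reads that covers counting error only. The median over the tested E2s and libraries was 2638 reads. Counting error was not compared with the spread between replicates.

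The T cell label was checked against 12 marker genes. Cd3e, a chain of the T cell receptor complex, stood at 874, 575 and 640 TPM in non-acclimated replicates 1, 2 and 3 and at 761, 484 and 476 TPM in cold-acclimated ones. Gata3, the transcription factor of the Th2 lineage, lay between 387 and 751 TPM in the 6 libraries. Cd4 itself went against the label in 4 libraries, with 1.09 and 0.0351 TPM in non-acclimated replicates 1 and 2 and 1.30 and 0.352 TPM in cold-acclimated ones, whereas replicate 3 held 310 TPM without and 328 TPM with cold acclimation. Trac, a T cell receptor chain gene, was at 15.0 and 12.8 TPM in the libraries of replicate 2 and between 129 and 207 TPM in the other 4. Trbc1 was at 0 in 5 libraries and at 0.214 TPM in cold-acclimated replicate 2.

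The 12 T cell markers summed to 5122, 3359 and 4408 TPM in non-acclimated and 4857, 3719 and 4106 TPM in cold-acclimated replicates 1, 2 and 3, with Cd3g as the most abundant gene. Of these markers 11 were tested and 0 passed an adjusted p of 0.05 in limma, nor 0.05 unadjusted, and 0 in voom, with the smallest p for Cd247, at a log2 fold change of 0.40 (adjusted p = 0.317), and Zap70, at -0.54 (adjusted p = 0.421). The 7 B cell markers summed to at most 1.11 TPM in any library, with Pax5 as the most abundant, Ms4a1 and Blnk at 0 in every library, and no gene tested. The 7 macrophage and monocyte markers summed to 2.87, 5.20 and 16.0 TPM in non-acclimated and 3.41, 2.90 and 21.5 TPM in cold-acclimated libraries, led by Lyz2 at up to 14.8 TPM, with Cd14 at 0 throughout and log2 fold changes of 0.33 for Lyz2 and 0.03 for Cd68 (adjusted p = 0.861 and 0.978). Of 6 erythroid markers, Hba-a1 alone was tested, and it stood at 189, 79.9 and 485 TPM in non-acclimated and 84.8, 60.8 and 473 TPM in cold-acclimated libraries (log2 fold change -0.52, adjusted p = 0.706), with Hbb-bs and Hbb-bt at 0. Replicate 3 therefore stood apart in both conditions in Cd4, Hba-a1 and the macrophage and monocyte markers, and replicate 2 stood apart in Trac. E2 calls, list counts and the named genes whose calls differ are also given without replicate 3 below. No fit left out both libraries of replicate 2. Whether all replicates came from the same culture was not tested.

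Most E2 genes sat above the general shift of the transcriptome. The median log2 fold change of the 28 tested E2s, on the log2(TPM + 1) scale on which the change of low genes is understated, was 0.24, against -0.34 for all 12227 tested genes, a difference of 0.58. After the libraries were rescaled by the median of their ratios to the genes' geometric means, the corresponding medians were 0.65 and 0.03. Measured from the all-gene median, 23 of the 28 E2s were higher under either scaling, but 17 without the filter on low values, where the difference of the medians was 0.31. The sign of the log2 fold change was positive for 17 of the 28 with TPM as deposited and for 24 after rescaling (all genes 33.5% and 51.6%), and those that turned included Ube2a, Ube2f, Ube2m, Ube2r2, Ube2s and Ube2z, all from negative to positive.

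Taken within replicates, the median difference of the E2s was 0.37, 0.11 and 0.19 in replicates 1, 2 and 3, whereas that of all tested genes was -0.32, -0.44 and -0.24. The difference was positive in all 3 replicates for 13 E2s and negative in all 3 for 6, and the other 9 were mixed. Of all tested genes, 18.2% were positive in all 3 replicates and 47.9% negative. The summed TPM of the 28 E2s was 3482, 4105 and 3536 in non-acclimated and 3604, 3454 and 4064 in cold-acclimated libraries, and the groups overlapped. In bulk RNA, fewer cells with a transcript and less of that transcript per cell cannot be told apart.

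**Figure D1:**
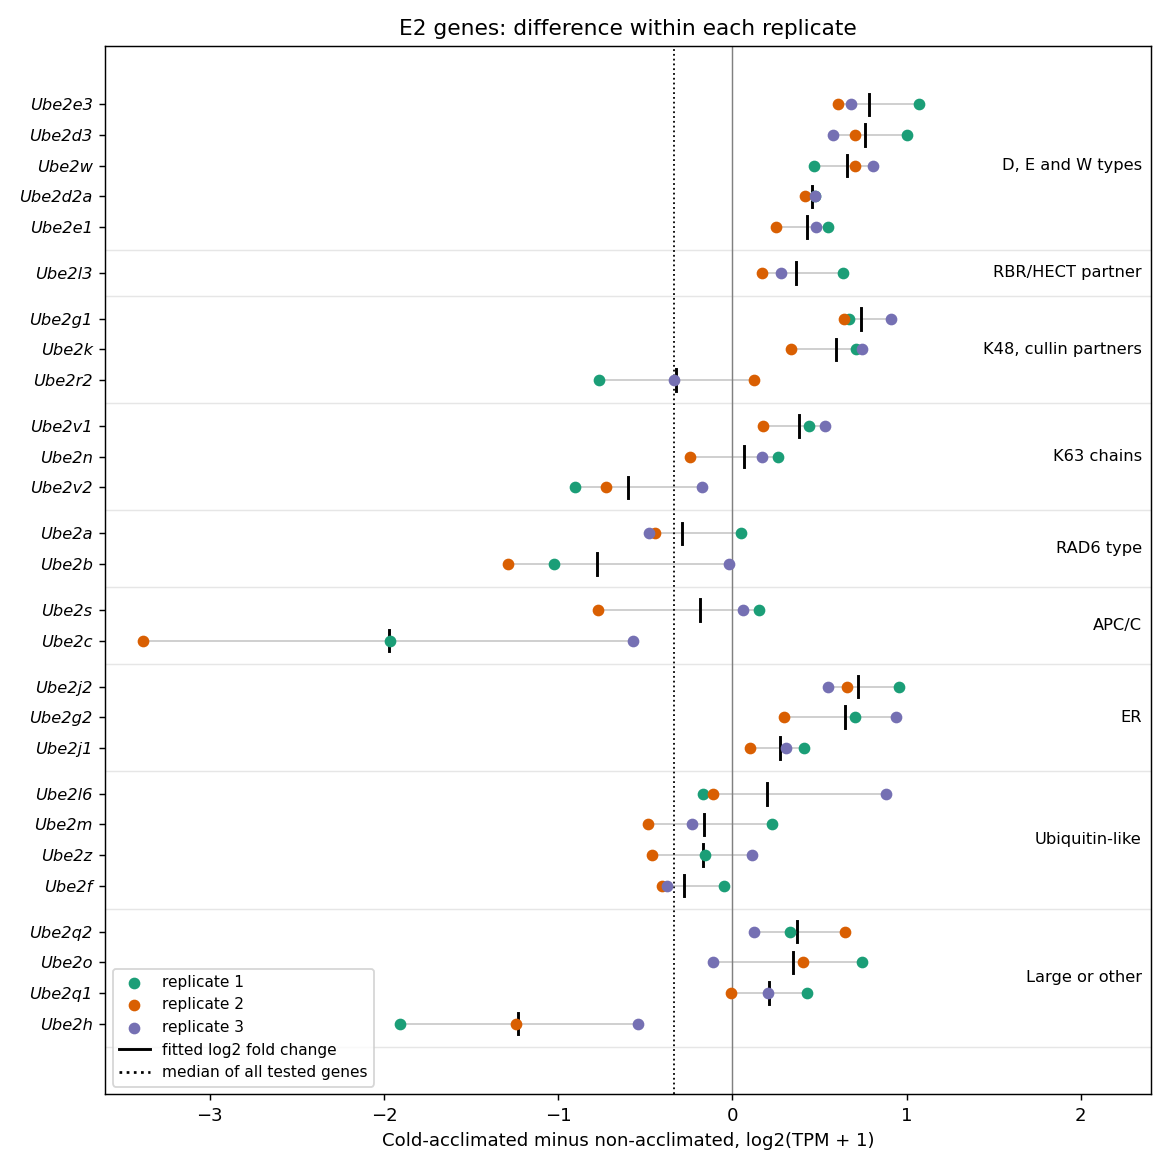
Difference in log2(TPM + 1) between the cold-acclimated and the non-acclimated library of each replicate for tested E2 genes, grouped by role, with points for the 3 replicates, a black bar for the fitted log2 fold change and a dotted line at the median of all tested genes (-0.34). The 5 genes of the D, E and W types and the 3 endoplasmic reticulum genes lie to the right of 0 in every replicate, while Ube2c reaches -3.38 in replicate 2.

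Of the 28 tested E2s, 2 rose and 0 fell at an adjusted p under 0.05 in limma, against 3.30% higher and 17.4% lower among all tested genes. At an unadjusted p under 0.05 the numbers were 6 higher and 3 lower (all genes 7.75% and 29.97%), and voom on the recovered reads gave 9 and 0 after adjustment (all genes 7.72% and 9.64%). When the log2 fold change also had to reach 1 in either direction, 0 were called upregulated and 0 downregulated, against 2.63% and 16.0% of all tested genes. The replicate numbers paired the libraries, and with the replicate as a block 4 E2s were higher and 2 lower (all genes 6.89% and 29.0%), with 0 called upregulated and 2 downregulated (all genes 3.75% and 21.9%).

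After median of ratios scaling 9 E2s were higher and 0 lower (all genes 8.64% and 9.33%), and 7 were called upregulated and 0 downregulated (all genes 6.87% and 8.60%). The authors normalized their counts by median of ratios, so in scaling this fit is nearer to their test than the fit to TPM as deposited. With the block and this scaling together, 14 were higher and 1 was lower, against 16.9% of all genes in each direction. Without replicate 3 in both conditions, a choice made after seeing the data, 3 were higher and 3 lower (all genes 6.85% and 28.5%). The TPM of the groups did not overlap for 9 E2s that were higher and 3 that were lower in cold-acclimated cells, against 9.69% and 31.4% of all tested genes. The share of E2s on the lower side was under that of all genes in each of these counts.

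The D, E and W types start or extend chains together with many different E3 ligases. Ube2d3, a broadly used partner of RING ligases encoded at chr3:135143993-135173975 on the plus strand of GRCm39, was measured at 207, 235 and 244 TPM in non-acclimated replicates 1, 2 and 3 and at 417, 384 and 365 TPM in cold-acclimated ones. Every cold-acclimated library lay well above every non-acclimated one, with little spread within either group. Its mean went from 229 ± 19.1 to 389 ± 26.5 TPM (SD, n = 3 each), and the transcript rose by a log2 fold change of 0.76 ± 0.20 (SE, adjusted p = 0.0371 in limma), higher in 3 of 3 replicates. The adjusted p was 0.0228 with the replicate block and 0.0155 after median of ratios scaling, where the log2 fold change was 1.18. The call was lost when 1 library was left out, be it cold-acclimated replicate 1 (adjusted p = 0.136), cold-acclimated replicate 2 (0.112), non-acclimated replicate 1 (0.103), non-acclimated replicate 2 (0.119) or non-acclimated replicate 3 (0.0538). The log2 fold change in these 5 fits stayed between 0.69 and 0.81. Without replicate 3 in both conditions it was 0.86 (adjusted p = 0.0307).

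Ube2d2a, a close paralog of Ube2d3, showed 132, 125 and 135 TPM in non-acclimated and 183, 168 and 188 TPM in cold-acclimated libraries. The groups did not overlap, with nearly the same difference in each replicate, from 0.42 to 0.47 on the log2 scale. The fitted log2 fold change was 0.46 ± 0.20 (adjusted p = 0.132, or 0.0889 with the replicate block). After median of ratios scaling it was 0.87 (adjusted p = 0.0253, or 0.0167 with the block as well).

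The E types, which carry an extended N-terminal region before the catalytic core, differed strongly in abundance. Ube2e1 was at 191, 260 and 285 TPM in non-acclimated and 280, 309 and 397 TPM in cold-acclimated libraries, with overlap between the groups. Ube2e3 was much scarcer, at 21.6, 21.7 and 15.9 TPM without and 46.4, 33.5 and 26.1 TPM with cold acclimation. All 3 cold-acclimated libraries of Ube2e3 exceeded the non-acclimated ones, and its log2 fold change of 0.78 ± 0.28 was the highest among the 28 E2s with TPM as deposited (adjusted p = 0.0870). With the replicate block Ube2e3 passed the threshold (adjusted p = 0.0322), as it did after median of ratios scaling (1.18, adjusted p = 0.0387) and without replicate 3 (0.84, adjusted p = 0.0493). Ube2e1 had a log2 fold change of 0.43 ± 0.25 (adjusted p = 0.263) and passed only in the rescaled fits (0.84, adjusted p = 0.0418 after median of ratios scaling, 0.0179 with the block as well, 0.0431 in voom).

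Ube2w, which attaches ubiquitin to the N terminus of proteins, was among the least abundant members, at 5.25, 3.92 and 4.72 TPM in non-acclimated and 7.65, 7.02 and 8.998 TPM in cold-acclimated libraries. These groups did not overlap either. The log2 fold change was 0.66 ± 0.25 (adjusted p = 0.102, or 0.0672 with the replicate block). After median of ratios scaling it was 1.01 (adjusted p = 0.0348, or 0.0220 with the block as well). The 5 tested genes of the D, E and W types together summed to 557, 646 and 685 TPM in non-acclimated and 934, 902 and 985 TPM in cold-acclimated libraries, with no overlap. Their median log2 fold change was 0.66, or 1.00 above the median of all tested genes.

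Ube2l3, which works with RBR and HECT ligases and not with most RING ligases, stood at 108, 128 and 221 TPM without and 169, 144 and 269 TPM with cold acclimation. Replicate 3 was highest in both conditions and the groups overlapped, although cold-acclimated values were higher within each replicate. Ube2l3 had a log2 fold change of 0.36 ± 0.35 (adjusted p = 0.497), between 0.10 and 0.66 with 1 library left out, and 0.78 after median of ratios scaling (adjusted p = 0.127; 0.0262 with the block as well).

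Ube2g1, Ube2k and Ube2r2 build chains that mark proteins for the proteasome. Ube2g1, a partner of cullin-RING ligases at chr11:72498087-72577307 on the plus strand, gave 58.4, 64.8 and 56.3 TPM in non-acclimated replicates 1, 2 and 3 and 93.5, 102 and 107 TPM in cold-acclimated ones. The libraries formed separate groups with small spread. The mean went from 59.8 ± 4.44 to 101 ± 6.58 TPM (SD, n = 3 each), and Ube2g1 rose by a log2 fold change of 0.74 ± 0.20 (SE, adjusted p = 0.0397 in limma), higher in 3 of 3 replicates. The adjusted p was 0.0268 with the replicate block and 0.0137 after median of ratios scaling, where the log2 fold change was 1.15. It missed the threshold without cold-acclimated replicate 1 (0.108), cold-acclimated replicate 2 (0.121), non-acclimated replicate 1 (0.104), non-acclimated replicate 2 (0.111) or non-acclimated replicate 3 (0.0750), at log2 fold changes between 0.70 and 0.80. Without replicate 3 in both conditions the log2 fold change was 0.65 (adjusted p = 0.0580).

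Ube2k, which assembles chains on its own and with RING ligases, was at 52.1, 78.8 and 75.8 TPM in non-acclimated and 85.9, 99.9 and 128 TPM in cold-acclimated libraries. The lowest cold-acclimated library was above the highest non-acclimated one. Its log2 fold change was 0.60 ± 0.26 (adjusted p = 0.142, or 0.0554 with the replicate block). After median of ratios scaling it was 1.01 (adjusted p = 0.0283, or 0.0137 with the block as well). Ube2r2, a relative of Cdc34 that extends chains on cullin-RING substrates, gave 95.6, 74.0 and 74.2 TPM without and 55.8, 80.8 and 58.7 TPM with cold acclimation. Replicate 2 was the exception here, with the higher value in the cold. The log2 fold change was -0.32 ± 0.24 (adjusted p = 0.372), and it turned to 0.08 after median of ratios scaling.

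Ube2n with Ube2v1 or Ube2v2, which are E2-like proteins without a catalytic cysteine, makes the chains used in NF-kB signalling and DNA repair. Ube2n was measured at 72.2, 126 and 135 TPM in non-acclimated and 86.8, 106 and 152 TPM in cold-acclimated libraries. The ranges largely coincided, with a log2 fold change of 0.06 ± 0.33 (adjusted p = 0.912; 0.48 after median of ratios scaling, adjusted p = 0.272). Ube2v1, the NF-kB partner, was at 126, 166 and 187 TPM without and 170, 188 and 270 TPM with cold acclimation, and was higher within each replicate (0.38 ± 0.27, adjusted p = 0.344; 0.79 after median of ratios scaling, adjusted p = 0.0545, or 0.0197 with the block as well).

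Ube2v2, the DNA repair partner, stood far lower, at 6.30, 7.69 and 7.46 TPM in non-acclimated and 2.91, 4.26 and 6.51 TPM in cold-acclimated libraries. It was lower in the cold within each replicate, yet cold-acclimated replicate 3 exceeded non-acclimated replicate 1. Ube2v2 had a log2 fold change of -0.60 ± 0.31 (adjusted p = 0.207), -0.25 after median of ratios scaling (adjusted p = 0.564), and between -0.84 and -0.37 with 1 library left out. The TPM ratio of Ube2v1 to Ube2v2, which does not depend on the scaling between libraries, was 19.9, 21.6 and 25.002 in non-acclimated and 58.6, 44.1 and 41.5 in cold-acclimated libraries, with no overlap.

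The RAD6 type E2s, Ube2a and Ube2b, work with Rad18 on PCNA and with Rnf20 and Rnf40 on histone H2B. Ube2a was at 68.0, 67.9 and 134 TPM in non-acclimated and 70.5, 49.5 and 96.0 TPM in cold-acclimated libraries. Replicate 3 was highest in both conditions and the groups overlapped (log2 fold change -0.29 ± 0.36, adjusted p = 0.600; 0.12 after median of ratios scaling). Ube2b gave 101, 122 and 59.1 TPM without and 49.3, 49.4 and 58.3 TPM with cold acclimation. Here the groups just failed to overlap, since non-acclimated replicate 3 sat close to its cold-acclimated counterpart while replicates 1 and 2 were far apart. The log2 fold change of Ube2b was -0.78 ± 0.30 (adjusted p = 0.104; 0.0706 with the replicate block), -0.37 after median of ratios scaling (adjusted p = 0.388) and -0.38 in voom, and without replicate 3 in both conditions it was -1.16 (adjusted p = 0.0125). With only non-acclimated replicate 3 left out it was -1.08 (adjusted p = 0.0300).

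Ube2c and Ube2s serve the anaphase-promoting complex, the ligase that ends mitosis by marking cyclin B and securin. Ube2c, which starts the chains and lies at chr2:164611849-164614822 on the plus strand, was measured at 635, 454 and 226 TPM in non-acclimated replicates 1, 2 and 3 and at 162, 42.6 and 152 TPM in cold-acclimated ones. All cold-acclimated libraries lay below all non-acclimated ones, widely in replicates 1 and 2 and less so in replicate 3. The mean went from 438 ± 205 to 119 ± 66.2 TPM (SD, n = 3 each), with a log2 fold change of -1.97 ± 0.58 (SE), the lowest of the 28 E2s, lower in 3 of 3 replicates. The adjusted p of 0.0502 in limma missed the threshold. With 1 library left out it passed for cold-acclimated replicate 3 (0.0401) and for non-acclimated replicate 3 (0.0406), and it lay between 0.0834 and 0.147 otherwise. It was 0.0216 with the replicate block, 0.0951 after median of ratios scaling (-1.56), 0.0439 with both, and 0.0217 without replicate 3 in both conditions (-2.67).

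Ube2s, which extends the chains, was the most abundant E2 in either condition, with 534, 854 and 598 TPM in non-acclimated and 595, 500 and 623 TPM in cold-acclimated libraries. The groups overlapped, with non-acclimated replicate 2 as the highest and cold-acclimated replicate 2 as the lowest library. For Ube2s the log2 fold change was -0.19 ± 0.26 (adjusted p = 0.639), and 0.23 after median of ratios scaling. Ube2c thus made up 18.2%, 11.1% and 6.40% of the summed TPM of the 28 E2s in non-acclimated and 4.49%, 1.23% and 3.75% in cold-acclimated libraries, and its rank by mean TPM went from 2 to 11 while Ube2s kept rank 1. The TPM ratio of Ube2c to Ube2s was 1.19, 0.532 and 0.379 in non-acclimated and 0.272, 0.0852 and 0.245 in cold-acclimated libraries.

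The 10 mitotic genes listed beside them gave 4 lower and 0 higher genes in limma (8 and 0 unadjusted, 5 and 0 with the block, 2 and 0 in voom, 10 and 0 without replicate 3, against 17.4%, 29.97%, 29.0%, 9.64% and 28.5% of all genes lower in these fits) and a median log2 fold change of -1.61. Aurkb (-2.14 ± 0.51, adjusted p = 0.0266) and Bub1 (-2.29 ± 0.56, adjusted p = 0.0297) had the smallest p among these. Their summed TPM was 2365, 2226 and 1760 in non-acclimated and 579, 275 and 1633 in cold-acclimated libraries, with Top2a as the most abundant. Cold-acclimated replicate 3 thus held mitotic transcripts near the non-acclimated level, while its Ube2c level was like that of cold-acclimated replicate 1. Aurkb and Bub1, lower in 3 of 3 replicates, lost their calls without cold-acclimated replicate 1 (0.0877 and 0.104), cold-acclimated replicate 2 (0.0598 and 0.0898), non-acclimated replicate 1 (0.0854 and 0.0969) or non-acclimated replicate 2 (0.0851 and 0.101), and Aurkb also without non-acclimated replicate 3 (0.0510). The part of the number of dividing cells in the Ube2c values was not tested.

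Ube2g2, Ube2j1 and Ube2j2 act at the endoplasmic reticulum, where misfolded proteins are ubiquitinated for disposal. Ube2g2, the enzyme among these without a membrane anchor, was at 68.7, 103 and 95.8 TPM in non-acclimated and 112, 127 and 184 TPM in cold-acclimated libraries. No overlap was seen, and the log2 fold change was 0.64 ± 0.28 (adjusted p = 0.134, or 0.0519 with the replicate block). After median of ratios scaling it was 1.06 (adjusted p = 0.0275, or 0.0135 with the block as well). Ube2j2, which is anchored in the membrane, stood at 30.2, 37.0 and 47.0 TPM without and 59.6, 58.9 and 69.4 TPM with cold acclimation. Its groups were also separate, and the log2 fold change of 0.72 ± 0.24 had an adjusted p of 0.0702, or 0.0343 with the replicate block, 0.0202 after median of ratios scaling (1.13) and 0.0383 without replicate 3.

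Ube2j1, the other membrane-anchored enzyme, gave 77.6, 77.3 and 100.1 TPM in non-acclimated and 104, 83.1 and 124 TPM in cold-acclimated libraries. The groups overlapped, with a positive difference within each replicate (0.27 ± 0.24, adjusted p = 0.454; 0.68 after median of ratios scaling, adjusted p = 0.0689, or 0.0303 with the block as well). The TPM ratio of Ube2j1 to Ube2j2 was 2.57, 2.09 and 2.13 without and 1.74, 1.41 and 1.79 with cold acclimation. The 3 genes summed to 177, 217 and 243 TPM in non-acclimated and 276, 269 and 378 TPM in cold-acclimated libraries.

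**Figure D2:**
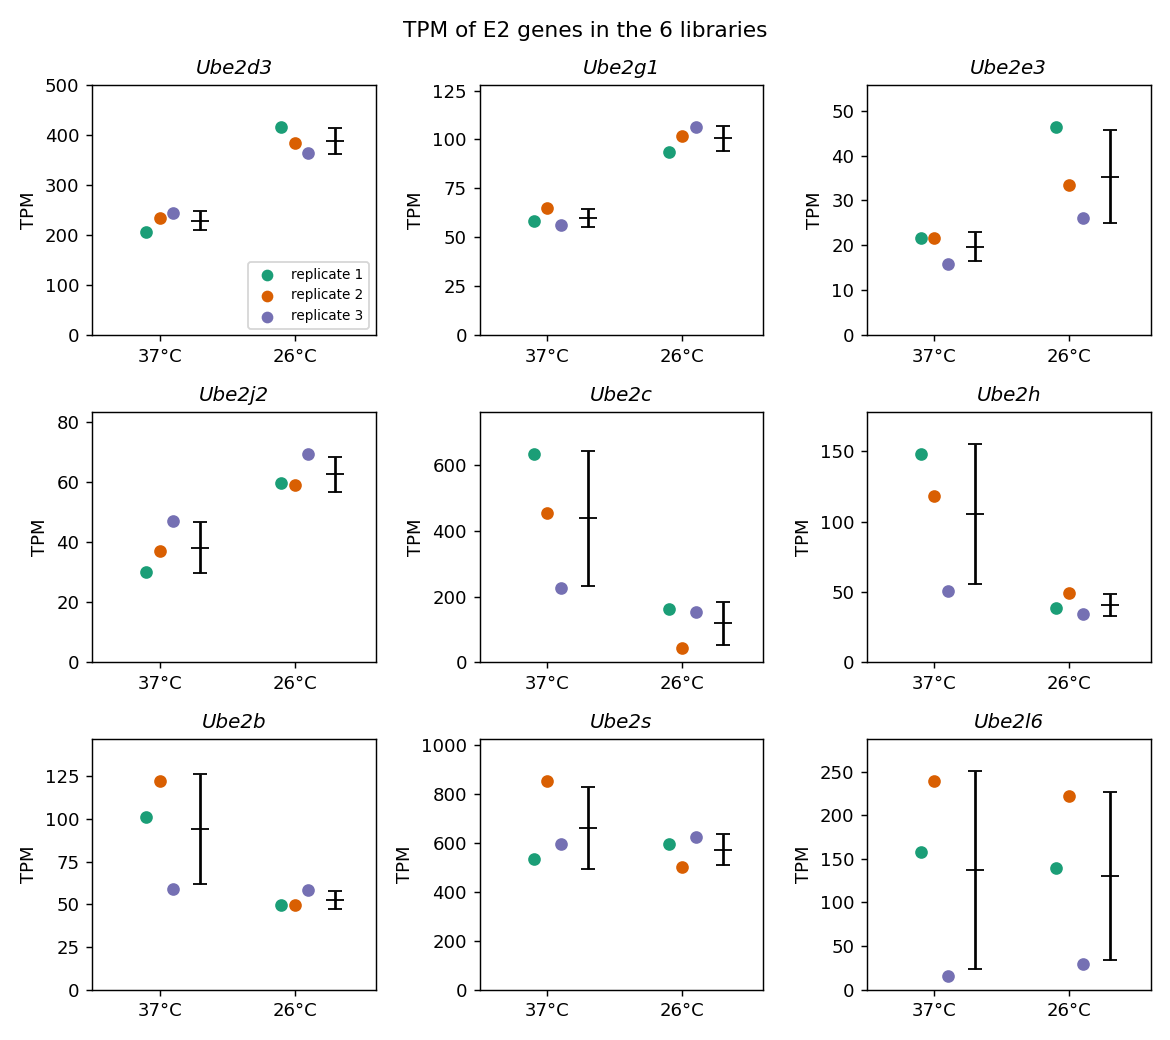
TPM of 9 E2 genes in each library at 37°C and 26°C, with 1 point per replicate and the mean ± SD of 3 replicates as a bar, on axes that start at 0. Ube2d3, Ube2g1, Ube2e3 and Ube2j2 are higher and Ube2c, Ube2h and Ube2b lower in every 26°C library than in any 37°C library, while Ube2s overlaps and Ube2l6 is low in replicate 3 at both temperatures.

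The E2s of modifiers other than ubiquitin, with Ube2z, gave no call in limma. Ube2m and Ube2f carry NEDD8 to the cullins, with Rbx1 and Rnf7 as their respective ligases. Ube2m stood at 155, 225 and 199 TPM without and 181, 161 and 169 TPM with cold acclimation. Ube2f stood at 51.2, 50.5 and 38.0 TPM without and 49.6, 38.0 and 29.0 TPM with it. Both overlapped between the conditions, at -0.16 ± 0.23 and -0.28 ± 0.27 (adjusted p = 0.642 and 0.503), and both turned positive after median of ratios scaling (0.25 and 0.13).

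Ube2z, the partner of the E1 enzyme Uba6, was at 82.5, 106 and 108 TPM without and 73.8, 76.2 and 117 TPM with cold acclimation (-0.17 ± 0.26, adjusted p = 0.678; 0.24 after median of ratios scaling). Ube2l6, the interferon-induced E2 of ISG15, was the most variable member, at 158, 239 and 15.5 TPM in non-acclimated and 140, 222 and 29.3 TPM in cold-acclimated libraries. Replicate 3 was low in both conditions, and the highest library exceeded the lowest by 15.5 times in non-acclimated and 7.56 times in cold-acclimated cells. Its log2 fold change was 0.20 ± 1.10 (adjusted p = 0.918), and -0.14 without replicate 3 (adjusted p = 0.775). With the replicate block it was 0.20 ± 0.26 (adjusted p = 0.572), and with the block and median of ratios scaling 0.61 ± 0.23 (adjusted p = 0.0836). Isg15, named after its values were seen, stood at 259, 433 and 49.1 TPM in non-acclimated and 151, 105 and 72.8 TPM in cold-acclimated libraries, and so was low in replicate 3 as well.

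Of the large or otherwise distinct E2s, Ube2h, the partner of the CTLH ligase, was measured at 148, 118 and 50.9 TPM in non-acclimated replicates 1, 2 and 3 and at 38.7, 49.3 and 34.6 TPM in cold-acclimated ones. The cold-acclimated libraries were all lower, although non-acclimated replicate 3 came close to cold-acclimated replicate 2. The log2 fold change was -1.23 ± 0.40 (SE), lower in 3 of 3 replicates, with an adjusted p of 0.0659 in limma and 0.0194 with the replicate block. It was -0.82 after median of ratios scaling (adjusted p = 0.193, or 0.0563 with the block as well, so the call was lost). Without non-acclimated replicate 3 it was -1.69 (adjusted p = 0.0153), and without replicate 3 in both conditions -1.58 (adjusted p = 0.00747).

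Ube2o, a large enzyme that acts as E2 and E3 at once, was at 38.5, 60.1 and 63.9 TPM without and 65.2, 79.9 and 59.2 TPM with cold acclimation, lower in the cold in replicate 3 alone (0.35 ± 0.27, adjusted p = 0.392; 0.76 after median of ratios scaling; 0.12 to 0.48 with 1 library left out). Ube2q1 stood at 132, 152 and 145 TPM in non-acclimated and 178, 151 and 167 TPM in cold-acclimated libraries, with overlap at replicate 2 (0.21 ± 0.20, adjusted p = 0.494). Ube2q2 stood at 47.4, 41.9 and 45.3 TPM without and 59.9, 66.2 and 49.5 TPM with cold acclimation. These last groups were separate by a small margin (0.37 ± 0.22, adjusted p = 0.259). Ube2q1 and Ube2q2 passed in the fit with the block and median of ratios scaling together (0.62 and 0.78, adjusted p = 0.0416 and 0.0374).

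The 8 members under the filter were Ube2d1, Ube2d2b, Ube2dnl1, Ube2dnl2, Ube2e2, Ube2q2l, Ube2ql1 and Ube2u. Each was listed at 0 TPM in every library, which is their highest value. Gapdh, a gene that every cell uses, was itself listed at only 9.52 to 66.9 TPM, though Actb stood at 1679 to 6245 TPM, and the sources used here do not say how reads that fit several places were treated, so that a listing at 0 is not read as silence of the gene. The same holds for near-identical copies such as Ube2d2a, Ube2d2b and Ube2d3, whose reads may have been shared or dropped.

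Of 10 planned pairs of paralogs or partners, 9 were tested by an exact two-sided permutation test. The tested value was the difference in log2(TPM + 1) of 2 genes in the same library. Unlike the TPM ratio, it is not fully free of the scaling between libraries, most of all for low genes. Ube2d1/Ube2d3 had no value since Ube2d1 was listed at 0. With 3 libraries against 3 the smallest possible p is 0.1, so no pair could pass 0.05. This difference did not overlap between the conditions for 3 pairs, with p = 0.1 in the exact test and 0.3 after adjustment over the 9 pairs. Ube2v1/Ube2v2 shifted by 0.98 on the log2(TPM + 1) scale, Ube2j1/Ube2j2 by -0.45 and Ube2c/Ube2s by -1.79, each in the same direction in 3 of 3 replicates. Ube2e1/Ube2e3 was at -0.36 with overlap (exact p = 0.5), also negative in 3 of 3 replicates.

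The other pairs were mixed between replicates. Ube2a/Ube2b had a mean difference of 0.49 (exact p = 0.5), positive in replicates 1 and 2 and negative in replicate 3, and between 0.11 and 1.11 with 1 library left out. Ube2q1/Ube2q2 was at -0.16 (exact p = 0.6), and Ube2m/Ube2f and Ube2g1/Ube2g2 at 0.11 and 0.10 (exact p = 0.8 and 1.0). Ube2l3/Ube2l6 was at 0.16 (exact p = 0.9), with a TPM ratio of 14.3 and 9.17 in replicate 3 but between 0.534 and 1.21 in the other 4 libraries.

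The counts of the other lists are to be read against the shares of all tested genes in the same fit, which were 3.30% higher and 17.4% lower in limma, 7.75% and 29.97% unadjusted, 6.89% and 29.0% with the block, 7.72% and 9.64% in voom, and 6.85% and 28.5% without replicate 3. Of 11 modifier genes, 1 was higher and 0 lower in limma, namely Ufm1, a small modifier attached at the endoplasmic reticulum, at 24.1, 33.4 and 40.0 TPM in non-acclimated and 68.6, 75.9 and 71.6 TPM in cold-acclimated libraries. It rose by 1.15 ± 0.25 (adjusted p = 0.0210), in 3 of 3 replicates, whereas Urm1 was at 0.61 ± 0.33 (adjusted p = 0.228). The Ufm1 call was lost without cold-acclimated replicate 1 (0.0735) or 2 (0.0768) and without non-acclimated replicate 1 (0.0662) or 2 (0.0785). The median of the modifiers was 0.14, with 1 higher and 0 lower also unadjusted, with the block and in voom, and 1 and 1 without replicate 3, where Isg15 passed (-1.40, adjusted p = 0.0249) against -0.75 (adjusted p = 0.506) with it, -0.34 after median of ratios scaling and -1.66 to -0.11 with 1 library left out.

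Of 10 E1 enzymes, 0 were higher and 2 lower, with a median log2 fold change of -0.57 (0 higher and 5 lower at an unadjusted p under 0.05, 0 and 3 with the block, 0 and 1 in voom, 0 and 5 without replicate 3). Uba6, which charges Ube2z, was at 50.3, 58.6 and 46.9 TPM without and 17.9, 23.0 and 16.9 TPM with cold acclimation, clearly separate groups, and fell by 1.39 (adjusted p = 0.0109). Uba7, which charges Ube2l6 with ISG15, was at 70.6, 58.8 and 43.9 TPM without and 31.4, 29.6 and 24.9 TPM with cold acclimation and fell by 0.97 (adjusted p = 0.0360). After median of ratios scaling Uba6 kept its call (-0.99, adjusted p = 0.0328) and Uba7 did not (-0.56, adjusted p = 0.175). Uba6 missed the threshold when cold-acclimated replicate 1 (0.0526) was dropped, and again for non-acclimated replicate 2 (0.0596). Uba7 kept its call only when non-acclimated replicate 3 was the library dropped, and missed for cold-acclimated replicates 1, 2 and 3 (0.0945, 0.0992 and 0.0506) and non-acclimated replicates 1 and 2 (0.113 and 0.124). Both were lower in 3 of 3 replicates. Ube2z and Ube2l6 themselves did not pass.

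Of 8 E2s and E2-like genes under other names, 0 were higher and 2 lower, with a median of -0.43 (0 and 2 unadjusted and with the block, 0 and 1 in voom, 0 and 4 without replicate 3). Both lack the catalytic cysteine, like Ube2v1 and Ube2v2. Aktip gave 14.0, 11.7 and 10.8 TPM in non-acclimated and 4.29, 3.57 and 5.14 TPM in cold-acclimated libraries (-1.31 ± 0.26, adjusted p = 0.0164). Uevld gave 14.3, 12.0 and 4.001 TPM without and 1.40, 1.72 and 3.49 TPM with cold acclimation (-1.69 ± 0.48, adjusted p = 0.0448; 0.0799 after median of ratios scaling; -2.46, adjusted p = 0.00386 without replicate 3). Both were lower in 3 of 3 replicates, though in replicate 3 the values of Uevld were close together. Neither passed without cold-acclimated replicate 1 (Aktip 0.0650, Uevld 0.142), cold-acclimated replicate 2 (0.0638, 0.131), non-acclimated replicate 1 (0.0674, 0.139) or non-acclimated replicate 2 (0.0709, 0.144).

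Among the ligases, the 16 genes of the anaphase-promoting complex and its activators gave 0 higher and 5 lower genes (0 and 8 unadjusted, 0 and 7 with the block, 0 and 4 in voom, 0 and 10 without replicate 3) and a median of -0.74, with Fzr1 (-1.64 ± 0.27, adjusted p = 0.00973) and Cdc16 (-1.25 ± 0.25, adjusted p = 0.0164) at the smallest p. Of 13 tested cullin-RING genes, 1 was higher and 1 lower (2 and 3 unadjusted, 2 and 3 with the block, 2 and 1 in voom, 2 and 2 without replicate 3), with a median of -0.11. These were Rnf7, the RING protein that works with Ube2f (1.03 ± 0.21, adjusted p = 0.0190), and Cul4a (-2.17 ± 0.29, adjusted p = 0.00744). Of 30 E3 partners, 1 was higher and 6 were lower, with a median of -0.15 (5 and 9 unadjusted, 4 and 8 with the block, 6 and 3 in voom, 1 and 8 without replicate 3); after median of ratios scaling there were 6 higher and 4 lower, while the shares of all genes went to 8.64% and 9.33%. The smallest p in this list were those of Ube3a (-1.92 ± 0.29, adjusted p = 0.00872) and Traf6, which works with Ube2n and Ube2v1 (1.54 ± 0.28, adjusted p = 0.0125). Each of these 6 ligase genes showed its direction in 3 of 3 replicates. Cul4a and Ube3a passed with any library left out, whereas Fzr1 missed without non-acclimated replicate 2 (0.0530). Cdc16, Rnf7 and Traf6 missed without cold-acclimated replicate 1 (0.0629, 0.0702 and 0.0589), cold-acclimated replicate 2 (0.0632, 0.0704 and 0.0527) or non-acclimated replicate 2 (0.0790, 0.0723 and 0.0577), and Cdc16 and Rnf7 without non-acclimated replicate 1 (0.0533 and 0.0630).

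**Figure D3:**
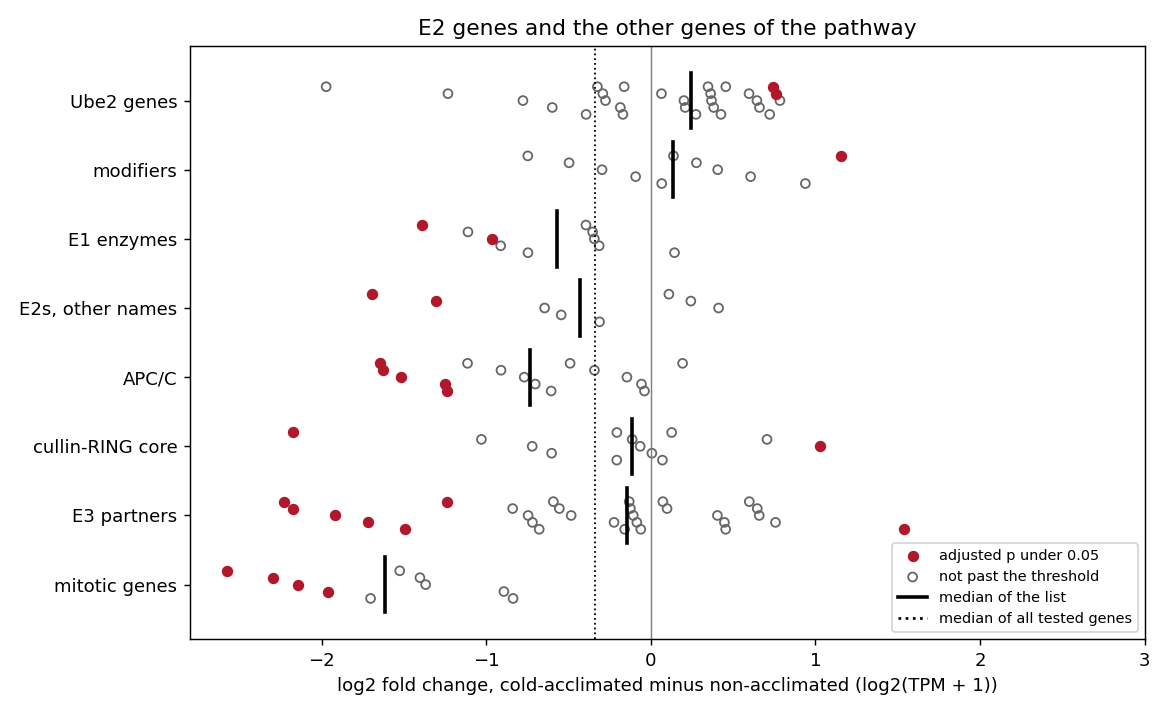
log2 fold change on the log2(TPM + 1) scale of each tested E2 gene and of each tested gene in the 7 pathway lists, with filled points for an adjusted p under 0.05, a black bar at the median of each list and a dotted line at the median of all tested genes (-0.34). Points are offset vertically for legibility; the E2 median of 0.24 is to the right of the dotted line and the median of the mitotic genes, -1.61, to its left.

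All 36 members overlapped, on the same strand, the gene with their identifier in a GENCODE annotation of GRCm39. Some shared their position with another gene in the deposited table. Ube2d3 overlapped the noncoding gene 4930539J05Rik on the opposite strand, which had a mean of 155 TPM and Ube2e1 overlapped Nkiras1 (42.4 TPM), also on the opposite strand. The strand setting of the counting is not given in the sources used here, so the reads of these partners could not be told apart, and the value of Ube2d3 is uncertain to that extent.

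Promoter windows from RefSeq, on build GRCm38.p6 and from 250 bases before to 50 after a gene's start, were found for 21 of the 28 tested E2s and 8 of the 10 mitotic genes. They were searched on both strands for TTTGAA, the core of the cell cycle homology region, and for CCAAT, the core of the CCAAT box. Of all genes with a window, 20.2% held TTTGAA, 41.1% held CCAAT and 7.97% held both in at least 1 window; of all 32851 windows the shares were 17.9%, 37.4% and 6.95%. At least 1 window held TTTGAA for 3 of the 21 E2s (Ube2c, Ube2f and Ube2z), CCAAT for 5 and both for 2 (Ube2c and Ube2f). Of the 8 mitotic genes, 6 held TTTGAA and all 8 held CCAAT. The window of Ube2s held neither.

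The window of Ube2c had 6 matches to CCAAT, a number reached or exceeded in 0.0791% of all windows, and 1 to TTTGAA, whose first base in the printed strand lies 29 bases before the start of the gene. It is shown for its 250 bases before the gene, chr2:164769679-164769928 on the plus strand of GRCm38.p6, because it holds more matches than the window of any other tested E2. Capitals mark the matches, among them TTCAAA and ATTGG on the opposite strand, and the run CCAATTGG holds an overlapping match on each strand. These are matches of letters only, and binding was not measured.
Ube2c: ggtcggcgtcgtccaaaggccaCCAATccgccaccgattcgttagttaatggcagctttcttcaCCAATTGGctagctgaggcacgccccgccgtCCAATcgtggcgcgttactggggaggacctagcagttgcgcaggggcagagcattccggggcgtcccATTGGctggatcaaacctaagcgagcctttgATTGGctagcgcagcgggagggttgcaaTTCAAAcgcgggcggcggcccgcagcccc

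The replicates were prepared independently according to the authors, whose labels name old and new RNA batches without assigning libraries to them. With TPM, a change in a few abundant transcripts shifts all others. Without the replicate block, the scaling chosen decided the sign of 7 E2s and the calls of 7 others. With the block, median of ratios scaling took the E2 calls from 4 higher and 2 lower to 14 higher and 1 lower. Ube2h was the call lost.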

How the data were processed

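The TPM values were used as deposited by the authors, whose submitters' processing notes name FastQC 0.11.7, Trimmomatic 0.38, HISAT2 2.1.0, featureCounts 1.6.3 and the genome GRCm39. The authors tested genes with DESeq2 and its median of ratios normalization of counts, and DESeq2 was not used here. How counts became TPM is not given in the sources used here. limma 3.58.1 in R 4.3.3 was fitted with a mean-variance trend on log2(TPM + 1) over the 12227 genes whose mean TPM reached 1, with Benjamini-Hochberg adjustment over all of them. Figures were made in matplotlib 3.10.9, and scipy 1.17.1, pandas 2.3.3 and numpy 2.4.6 served for the remaining values, under Python 3.11.15. The procedure was tested on simulated data. Whole reads were recovered from the step of each gene's TPM, with a largest deviation of 1.16e-10 reads, and in 901 genes the length had to be multiplied to become whole.

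The replicate numbers of the labels were checked as pairs by the correlation, across the tested genes, of each library's deviation from its condition mean. It was 0.48, 0.50 and 0.51 for the same number and between -0.41 and 0.02 for different numbers, so libraries were paired by number. The pairing enters the differences within replicates and the fits with the block, whereas the main fit and its SE hold no replicate term. Alternatives were a pseudocount of 0.1, no filter, median of ratios scaling, the replicate block, the block with that scaling, voom on recovered reads and each library left out.

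Every tested member but 1 was named, and of each pathway and marker list the 2 tested genes with the smallest p, with all genes of the modifier, E1 and other E2 lists past an adjusted p of 0.05; Cd3e, Cd3g, Cd4, Trac, Trbc1, Gata3, Isg15, Sumo2, Top2a, Pax5, Gapdh, Actb and markers at 0 were named after their values were seen. The members and lists were chosen with earlier results of these data known. 2 genes of the family are not reported here by name, of which 1 is part of the counts, medians and sums. There were 0 unused columns of library values.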

Additional observations from a re-analysis of the deposited data

How the results depend on the processing

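With the main settings 2 E2s were higher and 0 lower, 0 were called upregulated and 0 downregulated, and their median stood 0.58 above that of all tested genes. With the replicate block the paired libraries gave 4 higher and 2 lower, of which 2 were called downregulated, and it changed no other E2 call. Median of ratios scaling gave 9 higher and 7 called upregulated, the same 9 and 7 members as voom on recovered reads (all genes 944 higher and 1179 lower in voom). Block and scaling together gave 14 higher and 1 lower, with 7 called upregulated and 1 downregulated (all genes 9.23% and 12.4%). Without replicate 3 in both conditions, chosen after seeing the data, 3 were higher and 3 lower, with 0 called upregulated and 3 downregulated (all genes 5.34% and 25.3%). Without a filter on low values the median stood 0.31 above that of 21195 genes, with 17 of 28 E2s above it. The pseudocount of 0.1 left the adjusted counts of E2s as they were, and at an unadjusted p under 0.05 it gave 5 higher and 3 lower against 6 and 3.

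When each library was left out in turn, 0 to 3 E2s were higher, 0 to 3 lower, 0 called upregulated and 0 to 3 called downregulated, and the relative median was 0.52 to 0.63. Of all tested genes, 0.483% to 4.74% were higher, 2.82% to 24.5% lower, 0.483% to 3.75% called upregulated and 2.82% to 22.3% called downregulated in these fits. Without non-acclimated replicate 3, Ube2b, Ube2c and Ube2h were lower, and without cold-acclimated replicate 3, Ube2d3, Ube2e3 and Ube2g1 were higher and Ube2c lower.

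Signs turned for Ube2a (0.12), Ube2f (0.13), Ube2m (0.25), Ube2r2 (0.0845), Ube2s (0.23) and Ube2z (0.24) under median of ratios scaling, with the same values when the block was added. In voom they were 0.0901, 0.12, 0.23, 0.0729, 0.21 and 0.23 in that order. Cd68 was at -0.0328 with the pseudocount of 0.1 and -0.20 without replicate 3, and Ube2l6 at -0.14 without replicate 3. With 1 library left out, the log2 fold change ranged from -0.52 to 0.0326 for Ube2a, -0.99 to 1.05 for Ube2l6, -0.22 to 0.25 for Ube2n, -0.33 to 0.0126 for Ube2s, -2.31 to 2.78 for Cd4, -0.45 to 0.46 for Cd68, -1.42 to 0.13 for Hba-a1, -0.66 to 1.33 for Lyz2 and -0.12 to 1.51 for Sumo2 (0.94 with all libraries). Without a turn of sign it ranged from 0.26 to 0.54 for Ube2e1, -0.46 to -0.0877 for Ube2f, 0.14 to 0.42 for Ube2j1, -0.31 to -0.0435 for Ube2m, -0.49 to -0.20 for Ube2r2, 0.18 to 0.52 for Ube2v1 and -0.38 to -0.0527 for Ube2z. Among the other lists it ranged, also without a turn of sign, from 0.24 to 0.59 for Cd247, -0.89 to -0.16 for Zap70 and 0.33 to 0.84 for Urm1. The shifts of the pairs, on the log2(TPM + 1) scale, ranged from -0.00780 to 0.26 for Ube2g1/Ube2g2, -0.95 to 1.65 for Ube2l3/Ube2l6 and -0.11 to 0.28 for Ube2m/Ube2f. Without a turn of sign they ranged from 0.11 to 1.11 for Ube2a/Ube2b, -0.70 to -0.04 for Ube2e1/Ube2e3 and -0.28 to -0.002 for Ube2q1/Ube2q2. The cause was not tested.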
